A study of Mus musculus with 6 samples.

Results

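The livers of mice that were fed a high-fat diet (HFD) and received the control vector AAV8-TBG-GFP were described on their own, by the sample labels. They were 3 of the 6 samples in the study. The other 3, from mice given AAV8-TBG-Cre, were not used. The study asked how METTL14, a subunit of the enzyme complex that writes N6-methyladenosine (m6A) on RNA, affects glucose metabolism in obesity. All mice carried floxed Mettl14 alleles (Mettl14f/f) on a C57BL/6J background and were male. The genotype field of the labels reads WT for these livers, and no Cre was given to them. The mice were put on the HFD when 8 weeks old, the vector was injected 10 weeks later, and livers were taken 8 weeks after the injection. The vector is an adeno-associated virus of serotype 8. Its promoter, that of thyroxine-binding globulin (TBG), is active in hepatocytes and drove green fluorescent protein here. Chow-fed and uninjected livers were not analysed here, so what the diet, the vector and the mouse strain each contributed cannot be told apart.

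Hepatocytes make most of the proteins of blood plasma, package fat into lipoproteins, and carry the pathways for glucose output, fat synthesis and oxidation, bile acid synthesis, nitrogen disposal and the clearance of foreign compounds. In male mice they also make major urinary proteins (MUPs), small carriers of pheromones that pass into the urine. A few transcripts for secreted proteins therefore make up much of liver mRNA, while transcription factors and RNA-modifying enzymes are present at far lower levels.

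Levels are given as FPKM, fragment numbers scaled to transcript length and to the mapped fragments of the library, which allows genes to be compared. Values of the 3 livers stand in the order replicate 1, 2 and 3, and means carry the SD over the 3 mice. With 3 livers of 1 group there is nothing to test, and the SD measures only the spread between these mice. The libraries held 20356459, 20610170 and 20930497 expected counts. The table listed 17480 genes above 0 in at least 1 liver and 15051 in every liver. A mean FPKM of at least 1 was reached by 10503 genes, of at least 10 by 4349, of at least 100 by 699 and of at least 1000 by 64. Across the 10503 genes Spearman's rho was 0.987 between replicates 1 and 2, 0.979 between 1 and 3, and 0.973 between 2 and 3. Replicate 3 thus stood somewhat apart, and values are given liver by liver so that each can be read with and without it. The labels give the library of replicate 3 a longer name than those of replicates 1 and 2, without saying why.

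The tissue named in the labels was checked on liver markers, which say nothing of diet or vector. Alb, which encodes serum albumin, was the most abundant gene at 32390, 28514 and 35426 FPKM. Apoa1, the main protein of high-density lipoprotein, was listed at 7191, 7343 and 9895 FPKM, with replicate 3 above the other two. Ttr, the plasma carrier of thyroxine and retinol-binding protein, was listed at 5035, 4694 and 4274 FPKM. Means were 32110 ± 3465, 8143 ± 1519 and 4668 ± 381 FPKM (SD, n = 3). The 6 hepatocyte markers Alb, Apoa1, Cyp2e1, Ttr, Serpina1a and Cps1 together held 9.58% ± 0.935 of all FPKM. Alb alone took 5.84%, 5.02% and 6.45%.

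A small number of genes held most of the signal. The 10 most abundant genes held 22.1% ± 0.370 of summed FPKM, the top 100 held 51.6% ± 1.15, and the top 1000 held 80.3% ± 0.499. Adding genes in the order of mean FPKM, 50% of the sum was reached after 95, 78 and 91 genes, and 90% after 2506, 2401 and 2448. The order of the livers depended on the rank. The top 10 held 21.7%, 22.1% and 22.4%, most in replicate 3, while the top 50 held 42.5%, 44.7% and 42.2%, most in replicate 2.

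**Figure D1:**
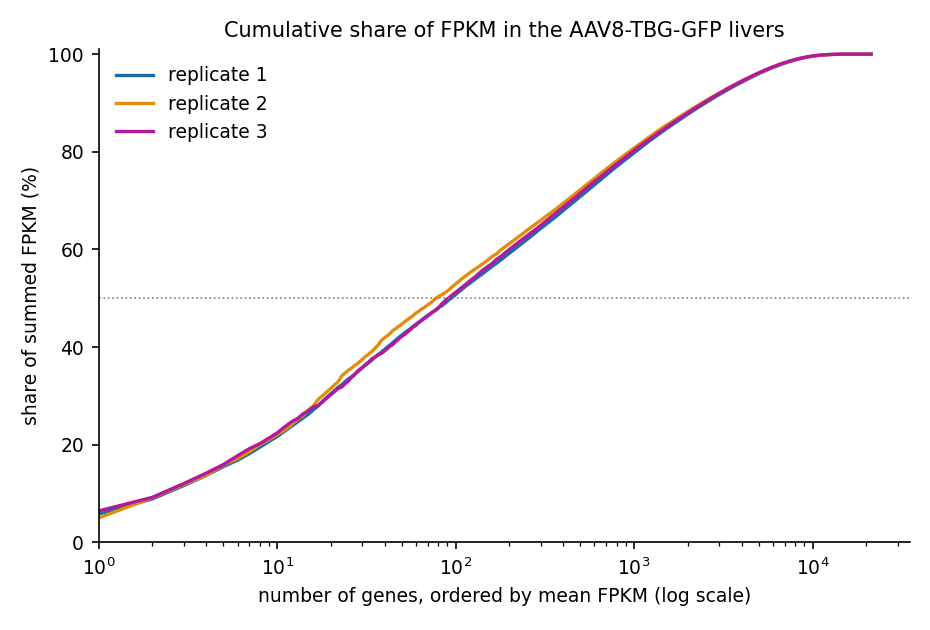
Share of summed FPKM (%, vertical axis) held by the most abundant genes, added in the order of mean FPKM (horizontal axis, log scale), 1 line for each AAV8-TBG-GFP liver. The lines cross 50% (dotted) after 95, 78 and 91 genes in replicates 1, 2 and 3, and the line of replicate 2 lies highest around rank 50.

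Promoter sequences of the most abundant genes were set beside their levels, because some short motifs differed in frequency between them and all genes. Families of near-copies are among these genes. Sequences are from RefSeq on GRCm38.p6, which is the mm10 assembly named for these files. Of the 100 most abundant genes, 76 had a promoter in that table, with 86 entries, and of the 10503 genes at a mean FPKM of at least 1, 8407 had one, with 10754 entries. The 100 bases before the start are printed 5′ to 3′. Capitals mark matches, on either strand, to 4 short motifs: TATANAA, a form of the TATA box; GTTAAT, a short AT-rich motif; CCAAT, the CCAAT box; and GGGCGG, the GC box. Capitals that run together can belong to overlapping matches. Positions are those of a match's leftmost base as printed, counted back from the start.

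The albumin promoter (chr5:90460770-90460869, plus strand) is shown as that of the most abundant gene, and Fabp1 (chr6:71199779-71199878, plus strand) as that of the most abundant intracellular lipid carrier.
Alb: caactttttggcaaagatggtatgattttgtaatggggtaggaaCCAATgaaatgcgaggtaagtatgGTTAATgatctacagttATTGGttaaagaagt
Fabp1: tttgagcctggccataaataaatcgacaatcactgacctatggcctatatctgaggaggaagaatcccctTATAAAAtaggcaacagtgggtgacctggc
The Alb window held GTTAAT 32 bases before the start and CCAAT at 56 and 15 bases. Fabp1 had a TATA box at 30 bases, and a GTTAAT at 107 bases, outside the printed stretch.

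The Serpina1 genes of chromosome 12, which encode the mouse forms of alpha-1-antitrypsin, are shown because 5 near-copies reached levels that differed several fold. Their windows, all on the minus strand, were chr12:103863620-103863719 for Serpina1a, chr12:103738190-103738289 for Serpina1b, chr12:103904951-103905050 for Serpina1c, chr12:103773634-103773733 for Serpina1d and chr12:103956898-103956997 for Serpina1e.
Serpina1a: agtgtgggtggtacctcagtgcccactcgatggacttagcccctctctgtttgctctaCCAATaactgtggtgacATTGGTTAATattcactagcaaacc
Serpina1b: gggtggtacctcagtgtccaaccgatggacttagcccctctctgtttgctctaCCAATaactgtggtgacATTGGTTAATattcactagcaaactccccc
Serpina1c: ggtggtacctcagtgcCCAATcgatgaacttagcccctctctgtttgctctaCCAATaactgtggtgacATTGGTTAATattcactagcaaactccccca
Serpina1d: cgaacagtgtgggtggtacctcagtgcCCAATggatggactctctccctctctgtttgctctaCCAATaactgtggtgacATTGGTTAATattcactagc
Serpina1e: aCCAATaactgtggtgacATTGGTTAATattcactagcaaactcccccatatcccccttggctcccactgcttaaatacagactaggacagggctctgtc
Every one of the 5 carried the same run, ATTGGTTAAT, in which a CCAAT on the other strand and GTTAAT overlap. Its GTTAAT lay 78 bases before the annotated start in Serpina1e, against 16 to 27 bases in the other 4. Aligned with Serpina1a, the windows were identical at 92 of 96 columns for Serpina1b, 92 of 95 for Serpina1c, 89 of 95 for Serpina1d and 43 of 44 for Serpina1e.

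The MUP genes of chromosome 4 are another family of near-copies, shown by Mup10 (chr4:60582156-60582255), Mup15 (chr4:61439705-61439804) and Mup19 (chr4:61782225-61782324), all on the minus strand.
Mup10: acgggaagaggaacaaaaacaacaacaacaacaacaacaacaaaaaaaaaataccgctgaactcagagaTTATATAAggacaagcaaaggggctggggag
Mup15: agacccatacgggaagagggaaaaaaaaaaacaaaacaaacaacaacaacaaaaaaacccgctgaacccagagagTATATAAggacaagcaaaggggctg
Mup19: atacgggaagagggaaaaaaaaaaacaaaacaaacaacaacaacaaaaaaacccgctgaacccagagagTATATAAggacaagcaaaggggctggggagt
A TATA box lay 30 bases before the start in Mup10, 31 bases in Mup19 and 25 bases in Mup15. In Mup10 it overlapped a match on the other strand at 31 bases. The windows of Mup15 and Mup19 were identical at all 94 aligned columns, and those of Mup10 and Mup19 at 89.1% of theirs.

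The serum amyloid A genes Saa1 (chr7:46742981-46743080, minus strand) and Saa2 (chr7:46751733-46751832, plus strand) lie next to each other in opposite directions and were among the most variable genes.
Saa1: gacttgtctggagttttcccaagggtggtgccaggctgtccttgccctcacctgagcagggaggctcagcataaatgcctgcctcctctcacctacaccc
Saa2: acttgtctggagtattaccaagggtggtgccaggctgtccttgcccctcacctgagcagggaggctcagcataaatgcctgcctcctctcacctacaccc
They were identical at 97 of 100 columns and held none of the 4 motifs in this window.

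For contrast, the promoters of 2 genes that were abundant and steady are Eef1a1 (chr9:78481725-78481824, minus strand), a translation elongation factor, and Sod1 (chr16:90220662-90220761, plus strand), the cytosolic superoxide dismutase.
Eef1a1: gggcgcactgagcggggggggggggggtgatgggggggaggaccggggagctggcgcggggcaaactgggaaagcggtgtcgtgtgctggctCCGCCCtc
Sod1: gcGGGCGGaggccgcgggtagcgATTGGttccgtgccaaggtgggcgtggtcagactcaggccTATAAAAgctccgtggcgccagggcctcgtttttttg
The Sod1 window held a TATA box, a CCAAT box and a GC box, and the Eef1a1 window a GC box 8 bases before the start.

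Over the 250 bases before the start, GTTAAT was present in 20.9% of the promoters of the 100 most abundant genes, against 4.40% for all genes at a mean FPKM of at least 1 and 6.43% for all 32851 promoters of the table. TATANAA was present in 23.3%, 5.24% and 10.4%, and GGGCGG in 16.3%, 57.2% and 32.7%. At 20 to 40 bases on the printed strand, TATANAA was present in 12.8%, 1.03% and 1.51%. CCAAT differed less, with 43.0%, 35.1% and 33.8%. GTTAAT occurred in 9 of 18 serpin promoters, and TATANAA in 11 of 14 MUP promoters, in 9 of 14 at 20 to 40 bases. Members of such families share sequence, so these promoters are not independent of each other. The part of such families in the shares of the 100 most abundant genes was not tested. The match of TTCNNNGAA, a spacing bound by STAT factors, was present in 5 of 17 promoters of acute phase genes and 3 of 18 serpin promoters. Its share was 4.65% for the 100 most abundant genes, 5.60% for genes at a mean FPKM of at least 1 and 7.02% for all promoters. A match describes these letters only, and no binding was measured.

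Sorted by the lists used here, plasma proteins and lipoproteins formed the largest class. These were carrier proteins, apolipoproteins with the enzymes and receptors of lipoproteins, serpins, complement, coagulation factors, acute phase proteins and hepatokines. Their 148 genes held 30.1%, 29.1% and 33.8% of summed FPKM and supplied 44 of the top 100 genes. MUPs held 11.3%, 15.03% and 9.30% with 21 genes, 11 of them in the top 100. The MUP share depended on the scale: on counts not divided by length it was 5.76%, just below the 5.77% of detoxification enzymes, and plasma proteins and lipoproteins stayed first among the classes at 28.8%. Replicate 3 was the highest for plasma proteins and the lowest for MUPs, and replicate 2 the reverse. By the deposited Gene Ontology terms, 650 genes of the extracellular region or space made up 6.19% of the genes at a mean FPKM of at least 1 but held 40.5% ± 1.42 of the FPKM.

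**Figure D2:**
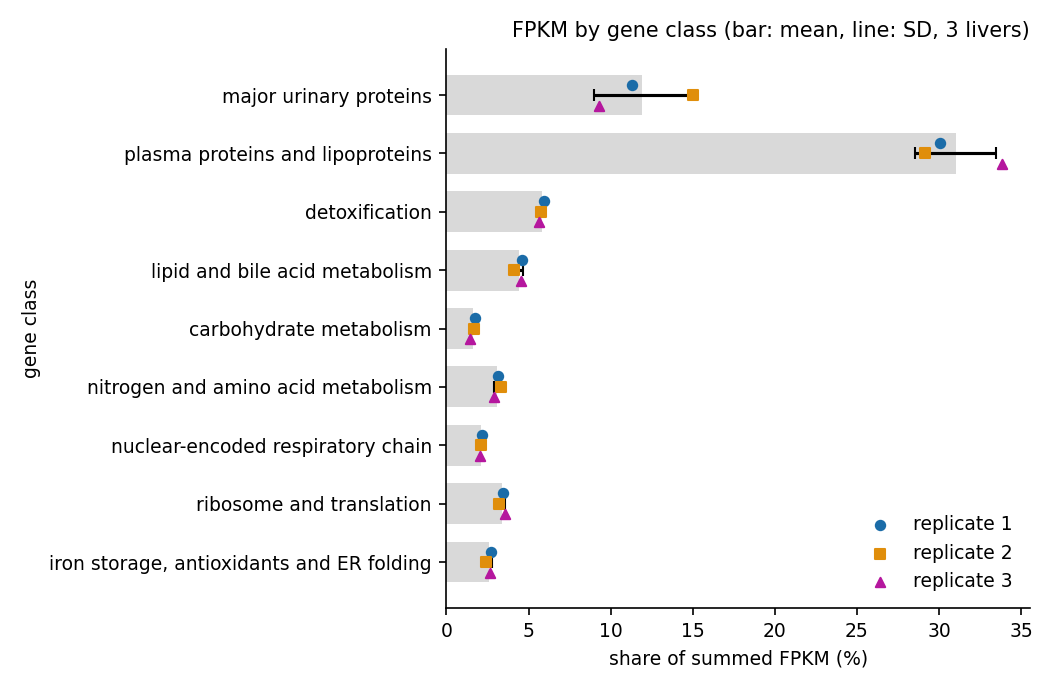
Share of summed FPKM (%, horizontal axis) for 9 gene classes that share no gene; bars are means, lines the SD, and points the 3 AAV8-TBG-GFP livers. Plasma proteins and lipoproteins held 31.0% ± 2.48 and MUPs 11.9% ± 2.90, while each of the other 7 classes held under 6%. On counts not divided by length MUPs held 5.76%.

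The other classes were smaller. Detoxification enzymes held 5.79% ± 0.147 and lipid and bile acid metabolism 4.40% ± 0.258. Ribosomal proteins and translation factors held 3.39% ± 0.172, and nitrogen and amino acid metabolism 3.10% ± 0.226. Iron storage, antioxidants and protein folding in the endoplasmic reticulum held 2.60% ± 0.169, the nuclear-encoded respiratory chain 2.12% ± 0.0561, and carbohydrate metabolism 1.61% ± 0.146. Genes in none of these classes held 34.1% ± 0.830. Of these, 10 were in the top 100 and are named here because of that rank: B2m, Car3, H2-Q10, Phyh, Cyb5a, Gm20594, Reep6, Slc38a3, Tmbim6 and Stard10.

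**Figure D3:**
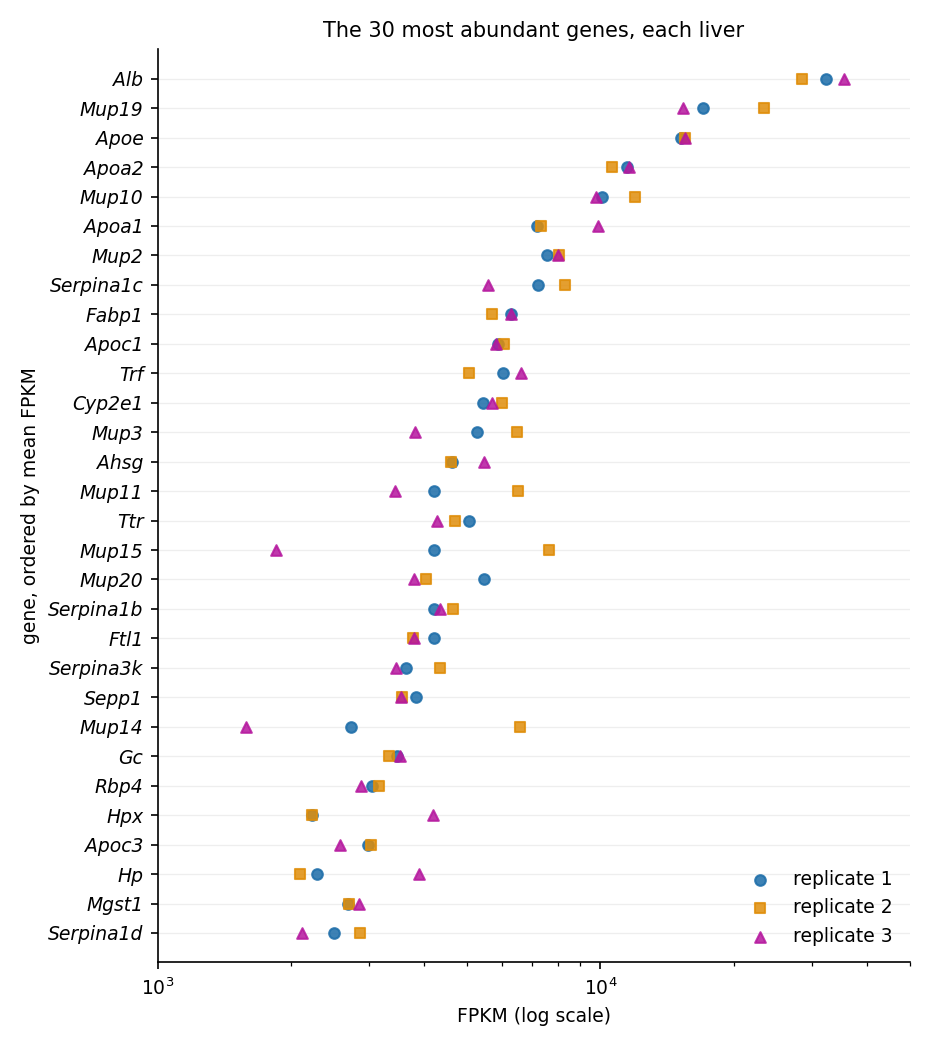
FPKM (horizontal axis, log scale) of the 30 most abundant genes, ordered by mean, with 1 point for each AAV8-TBG-GFP liver. Apoe, Mup2, Apoc1, Gc and Mgst1 show nearly coincident points, while Mup15 and Mup14 are highest in replicate 2 and lowest in replicate 3, and Hpx and Hp are highest in replicate 3.

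Among plasma carriers, iron, heme and vitamin transporters followed albumin. Trf, the iron carrier transferrin, was listed at 6018, 5043 and 6612 FPKM. Gc, which carries vitamin D, stood at 3471, 3335 and 3527 FPKM, and Rbp4, which carries retinol, at 3047, 3158 and 2876 FPKM. Gc and Rbp4 varied little. Hpx, the heme scavenger hemopexin, was at 2234, 2235 and 4185 FPKM, and Hp, the haemoglobin scavenger haptoglobin, at 2284, 2090 and 3887 FPKM. For both scavengers replicates 1 and 2 lay close together and replicate 3 was the highest, by a ratio of 1.87 and 1.86 over the lowest liver. Ahsg, the calcium-binding fetuin A, was at 4610, 4590 and 5456 FPKM. Sepp1, which carries selenium in plasma, was at 3824, 3570 and 3551 FPKM. Of the 27 carriers at a mean FPKM of at least 1, 20 were highest in replicate 3, against 3348 of all 10503 genes.

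Apolipoproteins and the proteins that act on lipoproteins held 8.93% ± 0.497 of FPKM and varied little. Apoe, a ligand of the lipoprotein receptors, stood at 15245, 15516 and 15529 FPKM, a coefficient of variation (CV, the SD as a percent of the mean) of 1.04%. Apoa2, the other large protein of high-density lipoprotein, was at 11466, 10648 and 11615 FPKM. Apoc1 was at 5862, 6054 and 5794 FPKM and Apoc3, an inhibitor of triglyceride clearance, at 2981, 3030 and 2578 FPKM. Apob, the structural protein of very-low-density lipoprotein, was far lower per length at 369, 382 and 421 FPKM. The exception among the 23 genes was Apoa4, at 976, 440 and 1024 FPKM, where replicate 2 was low. It alone of the 23 had a highest value more than 2 times the lowest, a ratio that 594 of all 10503 genes (5.66%) passed. Scarb1, the receptor of high-density lipoprotein, was at 96.3, 95.01 and 100.02 FPKM. Mttp, which loads lipid onto Apob, was at 92.3, 101.05 and 87.8 FPKM.

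Serpins, which inhibit proteases in plasma, held 4.78% ± 0.284 of FPKM with 22 genes. The Serpina1 genes whose promoters are printed above differed several fold in mean level. Serpina1c was at 7235, 8313 and 5561 FPKM, and Serpina1b at 4216, 4637 and 4332 FPKM. Serpina1d was at 2505, 2861 and 2112 FPKM and Serpina1a at 2149, 2326 and 2423 FPKM. Serpina1e was the lowest and most variable of the 5, at 428, 1020 and 862 FPKM, with replicate 1 low. Because these copies are near-identical, reads may be split between them by the counting, and their separate levels are uncertain. Serpina3k, a contrapsin, was at 3639, 4333 and 3451 FPKM. Serpinc1, antithrombin, was steady at 763, 759 and 793 FPKM.

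Coagulation factors showed the smallest spread among the classes of plasma proteins. Their 22 genes had a median CV of 4.99%, against 9.92% for all 10503 genes, and none had a highest value more than 2 times the lowest. The 3 chains of fibrinogen led the list. Fgb was at 2007, 2378 and 2403 FPKM, Fgg at 1707, 1948 and 1825 FPKM, and Fga at 1575, 1775 and 1967 FPKM. F2, prothrombin, stood at 840, 852 and 913 FPKM and Plg, plasminogen, at 848, 899 and 1022 FPKM. Kng1, the kininogen, was at 918, 952 and 1078 FPKM. F11, the factor with the largest ratio on the list at 1.49, was at 22.9, 28.3 and 19.01 FPKM. Complement was led by C3, its central component, at 1461, 1214 and 2134 FPKM, highest in replicate 3. C4b and Cfb followed at 385, 397 and 566 FPKM and at 398, 371 and 459 FPKM. Fcna, a ficolin made by macrophages, had the largest ratio of the complement list at 2.29, with 17.0, 18.6 and 8.12 FPKM.

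Hepatokines and other secreted regulators covered a wide range. Igfbp4, which binds insulin-like growth factors, was at 937, 998 and 933 FPKM. Hamp, the iron hormone hepcidin, was at 624, 1526 and 485 FPKM, and replicate 2 was more than 3 times as high as replicate 3. Agt, angiotensinogen, was steady at 470, 461 and 463 FPKM. Igf1 was as steady at 64.1, 66.4 and 65.5 FPKM. Fgf21, a hormone of the fasting and protein-restriction response, was at 12.3, 4.80 and 19.9 FPKM, and Gdf15 at 32.1, 15.2 and 37.9 FPKM. Both were lowest in replicate 2 and highest in replicate 3.

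MUPs were the most abundant family and also a variable one. Mup19 was at 17044, 23410 and 15337 FPKM and Mup10 at 10090, 11982 and 9775 FPKM. Mup2 was nearly level at 7573, 8079 and 8003 FPKM. Others spread widely. Mup15 was at 4203, 7644 and 1852 FPKM, Mup14 at 2725, 6582 and 1582 FPKM, and Mup7 at 1711, 3969 and 506 FPKM. Mup9 had the largest ratio of the family, 13.6, at 253, 521 and 38.2 FPKM. Of the 20 MUPs at a mean FPKM of at least 1, 18 were highest in replicate 2 and 18 lowest in replicate 3, and 10 had a ratio above 2. Over all 10503 genes the counts were 3351, 4748 and 594. The 2 MUPs that were not lowest in replicate 3 were Mup2 and Mup18, the latter at 1138, 1086 and 1356 FPKM. MUP genes share long stretches of sequence, so the division of reads between members is uncertain, while their sum is less affected by it. Mup15 and Mup19, whose printed windows were identical at all 94 aligned columns, had ratios of 4.13 and 1.53, which carry the same uncertainty. The part of promoter sequence in these ratios was not tested.

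Enzymes of foreign compound metabolism were led by Cyp2e1, the ethanol-oxidising cytochrome P450, at 5428, 5986 and 5695 FPKM. Of the cytochrome P450 genes in the table, 60 had a mean FPKM of at least 1. Cyp2d26 was at 833, 826 and 788 FPKM and Cyp2f2, a periportal enzyme, at 771, 803 and 743 FPKM. These changed little between mice, but 17 of the 60 had a ratio above 2, against 594 of all 10503 genes (5.66%). Cyp3a11, the main inducible drug-oxidising P450, was one of them at 257, 131 and 320 FPKM. Mgst1, a microsomal glutathione transferase, was the most abundant conjugating enzyme at 2682, 2705 and 2845 FPKM. Gstp1 was at 1242, 1522 and 800 FPKM, and Gsta3 at 1015, 866 and 491 FPKM, both lowest in replicate 3. Of the 21 glutathione transferases at a mean FPKM of at least 1, 13 were lowest in that liver, against 4748 of all 10503 genes. Adh1, the main alcohol dehydrogenase, stood at 1796, 1407 and 1376 FPKM. Ces1c, a secreted carboxylesterase, was at 1216, 1095 and 1014 FPKM. Ugt2b5, a glucuronosyltransferase, was at 291, 277 and 311 FPKM. The least even members were low ones. Cyp2b10, an inducible P450, was at 2.12, 2.62 and 0.15 FPKM, a ratio of 17.5. Gsta1 was at 10.1, 1.20 and 6.57 FPKM, a ratio of 8.45. Replicate 3 was the lowest for Cyp2b10 and replicate 2 for Gsta1.

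Fat handling was led by uptake and binding. Fabp1, the fatty acid-binding protein of the hepatocyte, was at 6272, 5685 and 6270 FPKM and ranked in the top 10. Scp2, a sterol carrier of peroxisomes, was at 1427, 1365 and 1333 FPKM. The fatty acid transporter Cd36 was lower at 44.1, 32.2 and 62.6 FPKM. Among genes of oxidation and ketogenesis, Cpt1a, which admits fatty acids to mitochondria, belonged to the steadier members at 192, 194 and 172 FPKM. Cyp4a10 and Cyp4a14, fatty acid omega-hydroxylases and known targets of the receptor PPARα, were the exceptions. Cyp4a10 was at 292, 176 and 753 FPKM and Cyp4a14 at 268, 102 and 734 FPKM, highest in replicate 3 and lowest in replicate 2 for both. Ehhadh, a peroxisomal enzyme of the same list, was at 113, 107 and 229 FPKM. Of the 30 genes of this list, 23 were highest in replicate 3, and 3 had a ratio above 2. Over all 10503 genes the counts were 3348 and 594. Ppara itself was at 79.2, 79.2 and 70.7 FPKM.

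Fat synthesis ran the other way between livers. Scd1, the stearoyl-CoA desaturase, was the most abundant member at 1305, 662 and 957 FPKM. Fasn, the fatty acid synthase, was at 61.5, 38.2 and 19.7 FPKM, and Acaca, acetyl-CoA carboxylase 1, at 16.4, 13.6 and 6.96 FPKM. Acly, which supplies cytosolic acetyl-CoA, was at 54.2, 51.3 and 26.1 FPKM. Replicate 3 was the lowest for these 3 enzymes, as for 14 of the 16 lipogenic genes at a mean FPKM of at least 1. Over all 10503 genes, 4748 were lowest in that liver. Thrsp, a regulator of lipogenesis, was at 453, 509 and 81.0 FPKM, and Srebf1, the lipogenic transcription factor SREBP-1, at 76.5, 59.9 and 28.5 FPKM. Acacb, which makes the malonyl-CoA that restrains fat oxidation, had a ratio of 3.61 at 16.4, 11.2 and 4.54 FPKM. A ratio above 2 was seen for 9 of the 16, against 594 of all 10503 genes (5.66%). Lipid droplet genes were led by Plin2, a coat protein, at 371, 350 and 528 FPKM, and by Hsd17b13 at 341, 279 and 368 FPKM. Cidea, a droplet protein that is low in lean liver, was at 3.16, 7.63 and 11.1 FPKM.

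Cholesterol synthesis was highest in replicate 1, for 20 of its 22 genes, against 3804 of all 10503 genes. Hmgcs1, a synthase early in the pathway, was at 93.3, 40.8 and 73.1 FPKM. Fdps, which makes farnesyl diphosphate, had the largest ratio at 3.56, with 189, 108 and 53.0 FPKM. Bile acid genes had a median CV of 11.4% over 19 genes, against 9.92% for all 10503 genes. A ratio above 2 was seen for 1 of the 19, against 594 of all 10503 genes (5.66%). Slc10a1, the bile acid importer, was at 430, 465 and 413 FPKM, and Cyp7a1, the rate-limiting enzyme of bile acid synthesis, at 52.4, 38.3 and 49.5 FPKM. Slco1a1, an organic anion importer, had a ratio of 5.58 at 42.9, 49.1 and 8.80 FPKM.

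Glucose output genes were abundant. Pck1, which commits oxaloacetate to glucose, was at 986, 794 and 834 FPKM. G6pc, the catalytic subunit of glucose-6-phosphatase, which releases free glucose, was at 135, 141 and 68.6 FPKM. Replicates 1 and 2 were close, and replicate 3 was lower by a ratio of 2.06. Slc37a4, which carries glucose-6-phosphate to that enzyme, followed the same order at 91.2, 115 and 59.1 FPKM. Fbp1, fructose-1,6-bisphosphatase, was steadier at 743, 742 and 657 FPKM. Pklr, the liver pyruvate kinase, was at 135, 159 and 51.4 FPKM, the largest ratio of the list of glycolysis and fructose use at 3.09. Of the 16 genes of that list, 12 were lowest in replicate 3, against 4748 of all 10503 genes. Pygl, glycogen phosphorylase, was at 155, 166 and 107 FPKM, and Gys2, glycogen synthase, at 95.4, 116 and 58.4 FPKM.

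Nitrogen metabolism was led by Ass1, the urea cycle enzyme argininosuccinate synthase, at 1772, 2317 and 1095 FPKM. Cps1, which begins the cycle, was at 426, 494 and 293 FPKM, and Asl, which follows Ass1, at 249, 321 and 152 FPKM. Replicate 2 was the highest and replicate 3 the lowest for all 3. Across the 10 genes 8 were highest in replicate 2 and 7 lowest in replicate 3, against 3351 and 4748 of all 10503 genes. Arg1, arginase, followed the same order with a smaller ratio of 1.25, at 536, 604 and 483 FPKM. Among amino acid enzymes Bhmt, which remethylates homocysteine, was at 1820, 2262 and 2142 FPKM. Hpd, of tyrosine breakdown, was at 1385, 1577 and 1064 FPKM, and Mat1a, which makes S-adenosylmethionine, at 917, 918 and 1025 FPKM. S-adenosylmethionine is the methyl donor for m6A. Tat, the tyrosine aminotransferase, had a ratio of 2.01 at 674, 335 and 542 FPKM.

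Machinery shared by all cells varied little. The 87 respiratory chain genes had a median CV of 5.25%, the 81 cytosolic ribosomal protein genes 5.48% and the 62 translation factors 5.45%. No respiratory chain or ribosomal gene had a ratio above 2, and 2 translation factors had one, Eif4ebp3 at 6.05 and Eif4e3 at 3.41. Over all 10503 genes, 594 had one. Atp5b, a catalytic subunit of ATP synthase, was at 597, 582 and 517 FPKM, and Cox6a1, of cytochrome oxidase, at 537, 554 and 522 FPKM. Small shifts still ran through whole lists. The ribosomal genes were lowest in replicate 2 for 60 of 81 and highest in replicate 3 for 53, and the respiratory chain was lowest in replicate 3 for 63 of 87. Over all 10503 genes, 3569 were lowest in replicate 2, 3348 highest in replicate 3 and 4748 lowest in replicate 3. Median differences from the mean of the livers were −0.07 in replicate 2 and 0.06 in replicate 3 for the ribosome, on the log2(FPKM + 1) scale. Rps4l had the largest ribosomal ratio at 1.84. Rpl41, the most abundant ribosomal gene, was at 541, 490 and 537 FPKM. Eef1a1 was at 2241, 2196 and 2300 FPKM. Genes of the mitochondrial genome were not analysed here.

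Transcripts of iron storage and antioxidant genes were abundant too. Ftl1 and Fth1, the chains of ferritin, were at 4196, 3773 and 3785 FPKM and at 1994, 1578 and 1774 FPKM. Gpx1 and Cat, which remove peroxides, were at 1687, 1715 and 1826 FPKM and at 1318, 1316 and 1280 FPKM. None of the 4 had a ratio above 2. The metallothioneins Mt1 and Mt2, which bind zinc and copper, were at 296, 304 and 637 FPKM and at 171, 130 and 371 FPKM, highest in replicate 3. Folding genes of the endoplasmic reticulum were lowest in replicate 2 for 16 of 21, against 3569 of all 10503 genes. Hspa5, the chaperone BiP, was at 174, 132 and 319 FPKM, and Creld2, a gene induced by folding stress, at 26.3, 15.3 and 46.1 FPKM.

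Transcription factors stood far below the most abundant secreted proteins. Cebpa, Hnf4a and Cebpb, factors of hepatocyte identity, were at 180, 193 and 204 FPKM, at 158, 142 and 186 FPKM, and at 160, 145 and 155 FPKM. The 24 transcription factors had a median CV of 10.6%, close to the 9.92% of all genes. Bcl6, a repressor that is higher in male liver, had the largest ratio of that list beside Onecut1, at 30.7, 9.20 and 5.86 FPKM. Onecut1 was at 4.74, 17.9 and 3.41 FPKM. The 2 differed in which liver was high, replicate 1 for Bcl6 and replicate 2 for Onecut1.

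The m6A machinery was present at even levels, with a median of 5.58 FPKM against 7.45 FPKM for all 10503 genes. Mettl14, the floxed gene, was at 2.31, 2.31 and 2.01 FPKM (2.21 ± 0.173, n = 3), and Mettl3, the catalytic subunit, at 5.03, 5.16 and 4.77 FPKM. Wtap, which anchors the complex, was at 9.39, 9.38 and 10.7 FPKM. The demethylases Alkbh5 and Fto were at 17.1, 16.8 and 14.8 FPKM and at 12.4, 11.4 and 12.9 FPKM. Among readers Ythdf3 was at 14.0, 15.3 and 13.2 FPKM, and Igf2bp2 was low at 0.67, 0.60 and 0.50 FPKM. Igf2bp1 was listed at 0. The 16 genes of this list at a mean FPKM of at least 1 had a median CV of 7.33% and none had a ratio above 2. Over all 10503 genes the median CV was 9.92%, and 594 had such a ratio.

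Markers of other cells were low. The 7 markers of Kupffer cells and macrophages summed to 0.0103% of FPKM, the 7 of sinusoidal endothelial cells to 0.0134%, and the 7 of stellate cells to 0.0268%. Clec4f, a Kupffer cell lectin, was at 17.3, 22.4 and 13.3 FPKM, and Clec4g, a lectin of sinusoidal endothelium, at 34.5, 34.1 and 17.2 FPKM. Replicate 3 was the lowest for 6 of the 7 endothelial markers, 6 of the 7 stellate markers and 5 of the 7 macrophage markers. It was also the lowest for 4748 of all 10503 genes. In bulk tissue, fewer cells of a type and less RNA per cell cannot be told apart. Erythroid genes held 0.165% ± 0.0574, and Hba-a1, an alpha-globin, was at 546, 345 and 269 FPKM, with its near-copy Hba-a2 at 294, 180 and 140 FPKM. Spp1, expressed in bile duct cells, was at 60.5, 25.4 and 47.0 FPKM, while Krt19, a defining keratin of those cells, was at 1.39, 0.58 and 0.48 FPKM. None of the markers of T and NK cells or of B cells reached a mean FPKM of 1. The muscle genes Ckm, Acta1 and Myh4 and the pancreatic genes Cpa1, Prss2 and Pnlip were listed at 0 in every liver. Adipoq, a defining gene of adipocytes, was at 0.20, 0.16 and 0.27 FPKM.

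The stated sex was checked on Y-linked genes. Eif2s3y was at 21.3, 20.4 and 19.2 FPKM and Ddx3y at 9.92, 10.9 and 9.47 FPKM, while Xist, the RNA that silences an X chromosome in females, was at 0.02, 0.02 and 0 FPKM. All 3 livers thus matched male mice. Male-biased genes of the liver varied nonetheless, and 13 of 16 were lowest in replicate 3, against 4748 of all 10503 genes. The list includes Mup7 and Mup20. Hsd3b5, a steroid dehydrogenase of male liver, was at 15.9, 25.4 and 1.25 FPKM, and Selenbp2, a selenium-binding protein, at 107, 263 and 34.0 FPKM. Elovl3, a fatty acid elongase, did not share the order at 26.1, 34.6 and 34.4 FPKM. Female-biased genes were mostly low, and 6 of 16 reached a mean FPKM of 1. Cyp2b9 was the highest of them at 88.5, 50.3 and 107 FPKM. Cish, a gene induced by growth hormone, was at 1.31, 18.8 and 2.70 FPKM, with replicate 2 far above the others.

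Spread between mice depended on level up to a point. The median CV was 31.2% for the 3666 genes at 0.1 to 1 FPKM, where the median count was 17.3, and 11.6% for the 6154 genes at 1 to 10 FPKM. It was 7.86% for 3650 genes at 10 to 100 FPKM, 7.99% for 635 genes at 100 to 1000 FPKM, and 10.9% for the 64 above 1000 FPKM. With the variance that counting alone gives taken off, the medians were 14.9%, 8.66%, 7.12%, 7.83% and 10.9%. These medians leave out genes not counted in every liver. At 0.1 to 1 FPKM, part of the fall can therefore come from the change of genes. Counting error covers the sampling of fragments only. At the top of the range the spread was thus almost entirely beyond counting, and it was larger than in the middle. Extracellular genes had a median CV of 13.7% and ribosomal ones 5.89% by Gene Ontology terms.

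Among the 4349 genes at a mean FPKM of at least 10, 1133 (26.1%) kept the highest liver within 1.1 times the lowest. Rab7, a GTPase of late endosomes, was the steadiest at 114.3, 114.3 and 114.1 FPKM. Pef1, a calcium-binding protein, was at 24.3, 24.2 and 24.3 FPKM, and Dlst, a subunit of 2-oxoglutarate dehydrogenase, at 82.2, 81.9 and 81.9 FPKM. Sod1 was at 897, 889 and 894 FPKM, and Cox8a, of cytochrome oxidase, at 378, 380 and 376 FPKM. The 10 smallest ratios lay between 1.00 and 1.01, and the others were those of Riok3, 1810026J23Rik, Ndufs4, Rab11a and Timm13. Differences among these 10 were not tested. Rab11a, like Rab7, is a GTPase of endosomes, and Ndufs4 and Timm13 are mitochondrial proteins of complex I and of protein import. GGGCGG was present in 58.6% of the promoters of the 1133 genes, much as in the 57.2% of all genes at a mean FPKM of at least 1.

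At the other end, 181 of the 4349 genes (4.16%) had a highest value more than 2 times the lowest. Replicate 3 was the liver farthest from the other two for 119 of the 181, 55 times as the highest and 64 times as the lowest. Replicate 2 was farthest for 44 and replicate 1 for 18. Over all 4349 genes the counts were 2152, 1231 and 966 for replicates 3, 2 and 1. Without replicate 3, 43 genes had a ratio above 2, without replicate 2 there were 97, and without replicate 1 there were 134, each over 2 livers instead of 3.

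**Figure D4:**
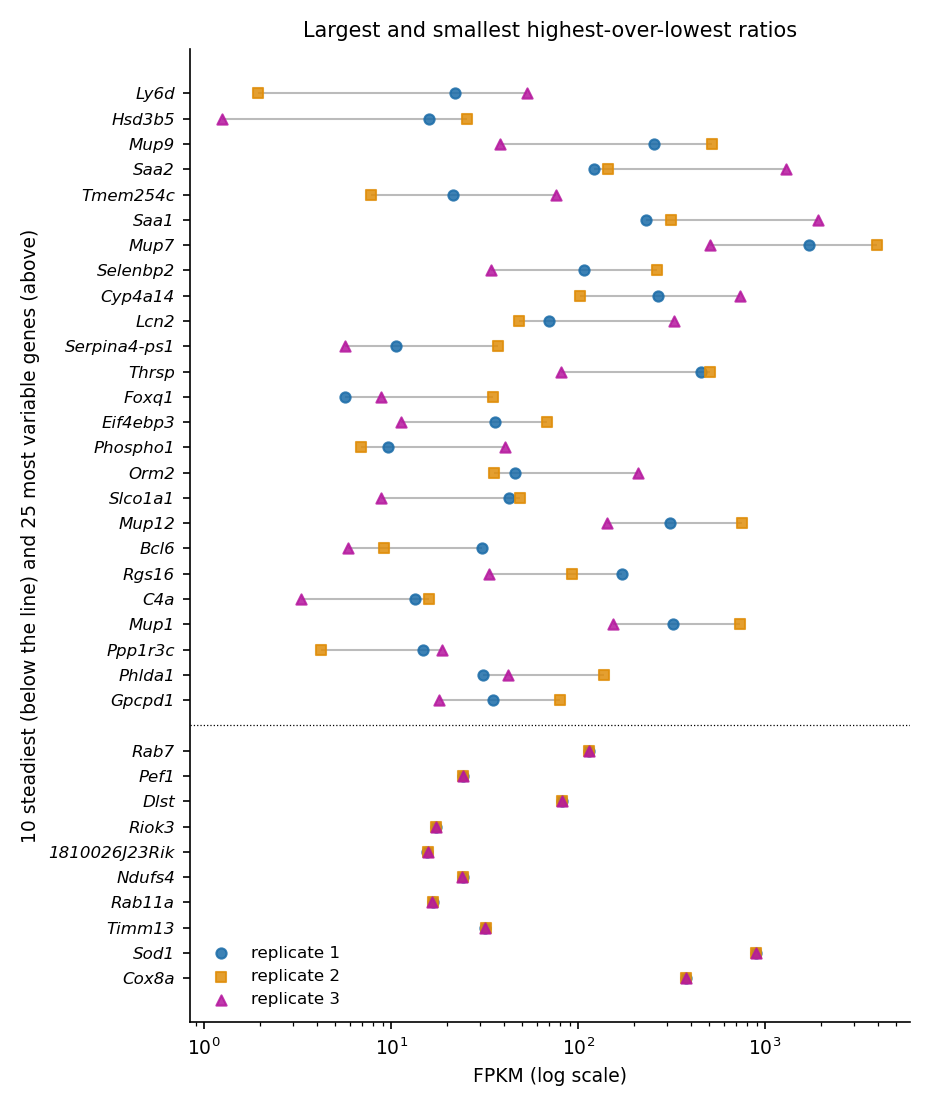
FPKM (horizontal axis, log scale) in each AAV8-TBG-GFP liver for the 25 genes with the largest and the 10 with the smallest highest-over-lowest ratio among genes at a mean FPKM of at least 10. Ratios reach 27.4 for Ly6d at the top, while the 3 points coincide for Rab7 and the other steady genes below the dotted line.

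The largest ratio, 27.4, belonged to Ly6d, a surface protein of the Ly6 family, at 21.9, 1.95 and 53.5 FPKM. Hsd3b5 followed at 20.3. Saa2 was at 121, 145 and 1288 FPKM and Saa1 at 232, 315 and 1919 FPKM. For these near-copies, whose promoters are printed above, replicates 1 and 2 lay together and replicate 3 was higher by a ratio of 10.6 and 8.28 over the lowest. Serum amyloid A rises in plasma during the acute phase response to inflammation. Lcn2, which sequesters bacterial siderophores, was at 69.8, 48.2 and 326 FPKM. Tmem254c was at 21.4, 7.81 and 76.3 FPKM, and its leading transcript was estimated at 72.1%, 1.15% and 88.5% of the gene. Whether this reflects transcript choice or the division of reads between transcripts and related genes such as Tmem254b was not tested. Foxq1, a forkhead factor, was at 5.63, 35.0 and 8.83 FPKM. Eif4ebp3, a repressor of translation, was at 36.1, 68.1 and 11.3 FPKM, and Phospho1, a phosphatase, at 9.57, 6.86 and 40.8 FPKM. The pseudogene Serpina4-ps1 was at 10.6, 37.2 and 5.65 FPKM. These genes did not share 1 order of livers: replicate 3 was highest for Ly6d, Saa1, Saa2, Lcn2 and Phospho1 and lowest for Hsd3b5, Eif4ebp3 and Serpina4-ps1.

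Many members of some lists were displaced together in 1 or 2 of the livers. Differences are medians over a list of log2(FPKM + 1) minus the mean of the 3 livers, and over all 10503 genes they were 0.02, −0.00 and −0.02. Acute phase proteins stood at −0.28, −0.34 and 0.59. Of their 18 genes 14 were highest in replicate 3 and 10 had a ratio above 2, against 3348 and 594 of all 10503 genes. The 10 included Orm2, an orosomucoid, at 46.0, 35.6 and 208 FPKM, and Apcs, serum amyloid P, at 47.8, 37.8 and 126 FPKM. The other 4 genes of the list, Hamp, Hamp2, Saa4 and Crp, were highest in replicate 1 or 2. Crp, the C-reactive protein, was at 210, 172 and 190 FPKM. MUPs stood at −0.05, 0.57 and −0.53, and male-biased genes at 0.11, 0.43 and −0.50. Lipogenesis stood at 0.43, 0.12 and −0.60, and cholesterol synthesis at 0.43, −0.19 and −0.22. Fatty acid oxidation was displaced less, at −0.04, −0.10 and 0.15.

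Interferon-stimulated genes stood at −0.31, −0.07 and 0.41, with 12 of 14 lowest in replicate 1 and 12 of 14 highest in replicate 3. Over all 10503 genes the counts were 2186 and 3348. Ifit1, an RNA-binding antiviral protein, was at 4.10, 6.99 and 13.3 FPKM, and Irf7, a regulator of interferon genes, at 18.1, 21.3 and 33.6 FPKM. Markers of sinusoidal endothelial cells stood at 0.25, 0.18 and −0.50 and erythroid genes at 0.56, −0.10 and −0.46. Stellate markers stood at 0.17, 0.28 and −0.31 and macrophage markers at 0.19, 0.10 and −0.21. Replicate 3 was thus high for acute phase and interferon genes and low for MUPs, lipogenesis and markers of endothelial, stellate, macrophage and erythroid cells. Markers of bile duct cells, of which 2 reached a mean FPKM of 1, went another way at 0.18, −0.32 and 0.14. Cfd, the adipocyte marker that reached it, was highest in replicate 3 at 9.85, 21.5 and 24.8 FPKM. The part of other cell types in these displacements was not tested. Genes of the circadian clock stood at 0.10, 0.11 and −0.21, and Arntl, a core activator of the clock, was at 0.39, 0.94 and 1.72 FPKM, while Dbp, a clock output, was at 65.2, 65.6 and 52.5 FPKM.

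**Figure D5:**
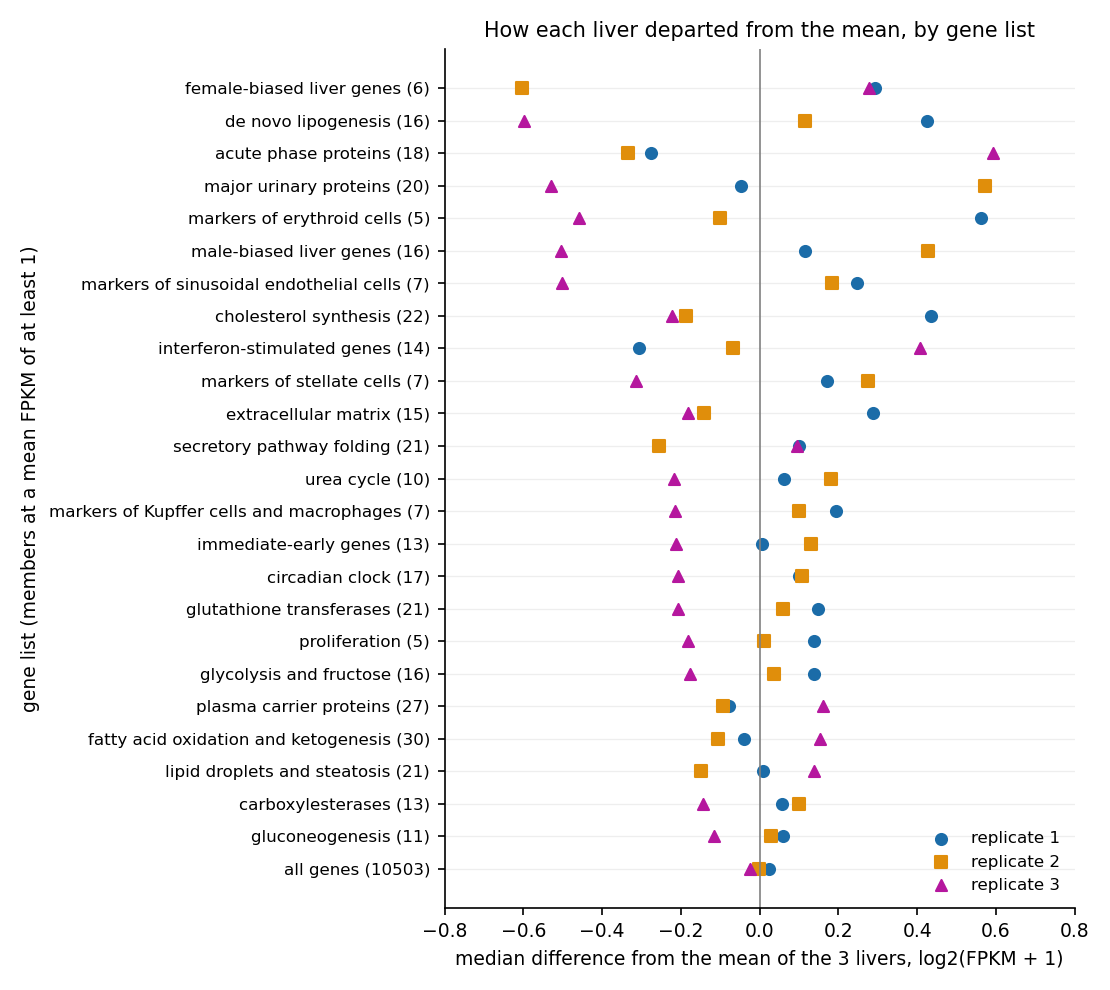
Median difference of each AAV8-TBG-GFP liver from the mean of the 3, on the log2(FPKM + 1) scale (horizontal axis), for the 24 lists with the largest displacement among those with at least 5 genes at a mean FPKM of at least 1 (number in brackets), with all genes in the last row. Replicate 3 is at 0.59 for acute phase proteins and at −0.60 for lipogenesis, while all genes lie between −0.02 and 0.02.

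The lists of zonal genes of the lobule were displaced little in their medians. Periportal genes stood at 0.01, 0.01 and −0.01 over 16 genes, and pericentral genes at 0.05, 0.02 and −0.00 over 17. Their median CVs were 11.4% and 13.1%, against 9.92% for all genes. Glul, glutamine synthetase of the cells nearest the central vein, was at 616, 525 and 651 FPKM. Pigr, the immunoglobulin transporter of the periportal list, was at 416, 479 and 506 FPKM. Cyp2e1 and Cyp2f2, a pericentral and a periportal P450, had ratios of 1.103 and 1.08.

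The genes of the matrix and proliferation lists were mostly low, with 3 of 19 and 2 of 13 at a mean FPKM of at least 10. Fn1, the plasma fibronectin made by hepatocytes, was at 319, 314 and 351 FPKM, while Col1a1, the collagen of scar tissue, was at 6.51, 2.48 and 4.00 FPKM. Of the 15 matrix genes at a mean FPKM of at least 1, 14 were highest in replicate 1, against 3804 of all 10503 genes. Mki67, a marker of dividing cells, was at 0.27, 0.18 and 0.33 FPKM and Afp, the fetal albumin homologue, at 0.42, 0.67 and 0.53 FPKM. Antigen presentation was led by B2m, the light chain of class I molecules, at 2534, 2387 and 2430 FPKM. H2-Q10, a secreted class I molecule of liver, was at 1312, 1245 and 1212 FPKM.

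The estimated leading transcript was mostly shared between livers. Of the 4349 genes at a mean FPKM of at least 10, 1299 had more than 1 transcript, and the leading one held a median of 78.7% of the gene's FPKM. It was the same transcript in every liver for 1134 of the 1299. For some genes the estimated shares were exactly even in every liver, such as Mdh1 at 50% and Cebpb at 33.3%. Such ties count as the same leading transcript, so part of this agreement comes from the estimate. Of the 100 most abundant genes 79 had a single transcript listed. Apoe was split, with 64.0%, 55.1% and 66.7% in its leading transcript, although the total for the gene hardly moved. Apoa2 was split more evenly, with 52.9%, 54.1% and 52.8%. Fga, which is spliced into a short and a long chain, had 64.7%, 62.7% and 65.4% in its leading form.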

How the data were processed

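RNA from whole liver was sequenced on a DNBseq platform, and 3 livers of the AAV8-TBG-GFP group were analysed. For each transcript the authors deposited an expected count, which is an estimate and need not be whole. They also deposited FPKM for transcripts and genes, scaled to length and mapped fragments. The submitters' processing notes name HISAT2, Bowtie2, RSEM and mm10, while STAR, HTSeq and DESeq2 are named in the published methods, without versions. Transcripts estimated at 0 are left out of the transcript files. Samples were grouped by their titles.

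FPKM was used as deposited, and expected counts were summed per gene. The columns of the gene table were all matched to samples. The table's 1 row without a gene ID was left out, and 27 symbols altered by a spreadsheet were restored by gene ID from RefSeq genes of GRCm38.p6. Shares are percentages of each liver's summed FPKM. Spread is given as SD, CV and the ratio of the highest to the lowest liver, for genes at a mean FPKM of at least 1 or 10. The counting variance of the counts was taken off as an alternative, for genes counted in every liver. Differences by list use a pseudocount of 1. No test was run. Between 20356459 and 20930497 expected counts per liver were available, and at 0.1 to 1 FPKM the median count of 17.3 limits precision. The steps for spread were tested on simulated data. Python 3.11.15, pandas 2.3.3, numpy 2.4.6, scipy 1.17.1 and matplotlib 3.10.9 were used. Chi-square per gene between pairs of livers lay between 25.0 and 74.9, so no library was a copy of another.

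The genes named are Alb, Apoa1 and Ttr, the 30 with the highest mean FPKM, for each of 59 lists the 5 most abundant and the 2 with the largest ratio among members at 1 FPKM or more, every member of lists of at most 6 genes, the 15 largest and 10 smallest ratios at 10 FPKM or more, and Mettl14, Mettl3, G6pc, Pck1, Fasn, Acly, Acaca and Scd1. Other list members, the promoters and the motifs were picked with values in view. The group, the lists and the rule were chosen with earlier results of these data known. Alternatives were other scales, minima and pseudocounts, FPKM summed over transcripts, and leaving out each liver. Some genes that the rule names are not reported here.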

Additional observations from a re-analysis of the deposited data

How the results depend on the processing

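Of 133 alternative values for the results on whole livers, 107 stayed within the spread between livers or within 1.5 times a count, 26 moved, and none changed sign. Part of the 107 could not have moved, so their number does not measure stability. Rescaling each liver's FPKM to a fixed total leaves shares as they are, and the top 100 genes again held 51.6%. FPKM summed over transcripts differed from the gene table by at most 0.02, so that setting repeats the main values. Counts, shares and levels cannot change sign. On CPM of the expected counts, which is not per length, the top 100 genes held 42.8%, MUPs 5.76% (below detoxification at 5.77%), lipid and bile acid metabolism 5.13%, carbohydrate metabolism 1.81%, nitrogen and amino acid metabolism 3.74%, the respiratory chain 1.05%, ribosome and translation 2.10%, iron storage, antioxidants and folding 2.13%, and genes in no class 43.7%. Without the 10 most abundant genes in the sum, MUPs held 6.71%, plasma proteins and lipoproteins 21.4%, detoxification 7.43%, carbohydrate metabolism 2.07%, nitrogen and amino acid metabolism 3.98%, the respiratory chain 2.72%, ribosome and translation 4.35%, iron storage, antioxidants and folding 3.34%, and genes in no class 43.7%. The median CV was 12.9% at a minimum of 0.1 FPKM, 7.92% at 10 FPKM and 7.96% with counting variance taken off, and 6.32% to 9.56% when a liver was left out, lowest without replicate 3. Genes with a ratio above 2 numbered 594 at a minimum of 1 FPKM and 43 to 134 when a liver was left out. The lowest agreement between livers was 0.980 by Pearson's r of log2(FPKM + 1). Size factors lay between 0.983 and 1.02, so scaling between livers moved no value past its spread. Leaving out 1 of 3 livers always moves a mean by less than its SD, so it says nothing of stability. No paired analysis was possible because the livers belong to 1 group and no test was run. Depth limits genes below 1 FPKM, and the SD over 3 mice is itself imprecise.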
